A study of Mus musculus with 6 samples.

Results

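Tspo, Dbi and Vdac1 were followed across the retinal transcriptomes of control mice, light-exposed mice and light-exposed mice that received minocycline. They are the 3 rows of the deposited gene table that carry these symbols, out of 23420 genes. They were chosen by name, but with earlier results of these data known. The series holds 6 libraries of total retinal RNA, 2 biological replicates for each of the 3 groups, from CD1 mice according to the labels. Control animals were untreated. The light group was exposed to white light of 10000 lux for 1 h and analyzed on day 4. The third group had the same exposure and, in addition, an intraperitoneal dose of 45 mg/kg minocycline, a tetracycline antibiotic that dampens microglial reactivity, on each of 4 days. The methods differ from the labels in naming albino BALB/cJ mice of both sexes, 10 to 14 weeks old, and an intensity of 15000 lux. They also differ in the dosing, with 2 injections per day on the first 2 days, from the day before the exposure, and 1 per day afterwards. Whether the light group received the solvent is not given in the labels, so that injection and drug cannot be told apart. The deposited columns of the minocycline libraries share 1 header, and they are therefore called library A and library B here, with no replicate number.

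Translocator protein (TSPO) sits in the outer membrane of mitochondria, binds cholesterol and many synthetic drug ligands, and is low in the healthy retina and brain. It is widely used as a marker of reactive microglia, the resident macrophages of nervous tissue, although endothelial, smooth muscle and reactive macroglial cells also express it. Diazepam-binding inhibitor (DBI, also called acyl-CoA-binding protein) is its endogenous ligand and, at the same time, a carrier of long-chain acyl-CoA esters. In the retina it is made mainly by Müller cells, the radial glia that span all retinal layers. VDAC1 is the voltage-dependent anion channel of the same outer membrane, through which ATP and other metabolites pass, and was described as part of a complex with TSPO.

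Tspo (ENSMUSG00000041736.7) is a protein-coding gene on chromosome 15 of GRCm38, from 83563592 to 83574203 on the plus strand, and its longest coding transcript in GENCODE M21, Tspo-201, has 837 bases in 4 exons. The stretch of its last exon below encodes the cholesterol-recognition motif near the end of the protein. It lies at chr15:83573896-83573916 and covers codons 150 to 156. Capitals mark the codons of the leucine, tyrosine and arginine that define this motif.
Tspo-201 cholesterol-recognition codons: CTCaactacTATgtatggCGT

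Dbi (ENSMUSG00000026385.16) lies on chromosome 1, from 120113280 to 120121078 on the minus strand, and Dbi-201 has 569 bases in 4 exons. Proteolytic cleavage of DBI releases the octadecaneuropeptide, the fragment known to act as a receptor ligand. The stretch below is shown because it encodes that fragment, residues 33 to 50 when the first methionine is not counted. It starts in exon 2 and ends in exon 3, between 120116423 and 120119925, and is printed without the intron. Capitals mark the lysine codon in front of the fragment and the lysine codon that ends it.
Dbi-201 octadecaneuropeptide codons: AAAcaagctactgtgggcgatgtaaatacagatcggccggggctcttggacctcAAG

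Vdac1 (ENSMUSG00000020402.11) lies on chromosome 11, from 52360860 to 52389397 on the plus strand, and its longest coding transcript, Vdac1-202, has 2022 bases in 9 exons.

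The deposited values were whole read counts, with 15205930 to 22856922 per library. Levels are given as CPM, read counts scaled to a common library total, after TMM normalization, which adjusts each library for its composition. Each gene was tested with the quasi-likelihood test of edgeR on all genes that passed a filter on low counts, and genes with an adjusted p below 0.05 are referred to as called. Samples of 2 against 2 cannot give an exact permutation p below 0.333, so that all p-values rest on the spread that edgeR estimates across genes. Control replicate 1 held 77778 counts of the female transcript Xist, against 25 to 188 in the other libraries, and 11 counts of Y-linked genes, against 6532 to 12858, so that control 1 differed in sex from all others. Because whole retinas were sequenced, fewer cells of a type and less RNA per cell cannot be told apart.

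Tspo mRNA was 4.32-fold and Dbi mRNA 2.04-fold higher after light exposure, whereas the Vdac1 level in light-exposed retinas lay between those of the 2 control libraries. Of the 3 genes, 2 passed the test as higher, where 7.52% of the 14349 tested genes did so.

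Tspo was represented by 59 and 54 counts in the control libraries and by 191 and 489 counts in the light libraries. These correspond to 4.194 and 3.803 CPM in control and to 11.2 and 23.2 CPM after light. Both light libraries were above both controls, and light replicate 2 was the highest of all libraries. The group means were 4.00 ± 0.277 CPM (SD, n = 2) and 17.2 ± 8.53 CPM (SD, n = 2). The log2 fold change was 2.11 ± 0.36 (SE), with a 95% interval from 1.31 to 2.91 and an edgeR adjusted p of 0.0132. It was thus also above the log2 fold change of 2 that the study used as its cutoff, which 2.89% of tested genes passed as higher together with the adjusted p. Counting error was small beside this difference, as the exact 95% Poisson interval of the lowest count of 54 ran from 40.6 to 70.5 and that of the 191 counts in light replicate 1 from 164.9 to 220.1.

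Dbi, the ligand gene, had 66.5 and 49.6 CPM in control and 92.1 and 144 CPM in light-exposed retinas. Both light libraries exceeded both controls, with the higher value again in light replicate 2. The means were 58.1 ± 11.99 CPM in control and 118 ± 36.8 CPM after light (SD, n = 2 each). The log2 fold change was 1.03 ± 0.24 (SE), with a 95% interval from 0.48 to 1.58 and an edgeR adjusted p of 0.0335. This is below the fold cutoff of the study. Whether Tspo changed more than Dbi was not tested, and the 2 intervals overlap.

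Vdac1, the channel gene, had 251.9 and 173.2 CPM in control and 227 and 227.8 CPM after light. The light values fell between the controls. The means were 213 ± 55.6 and 227 ± 0.547 CPM (SD, n = 2 each), and the log2 fold change of 0.10 ± 0.19 (SE) had an edgeR adjusted p of 0.754. Its 95% interval ran from -0.31 to 0.51 and spanned 0. Replicates that do not overlap are no rare event with 2 against 2, since 30.6% of all tested genes lay higher in both light libraries than in both controls.

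**Figure D1:**
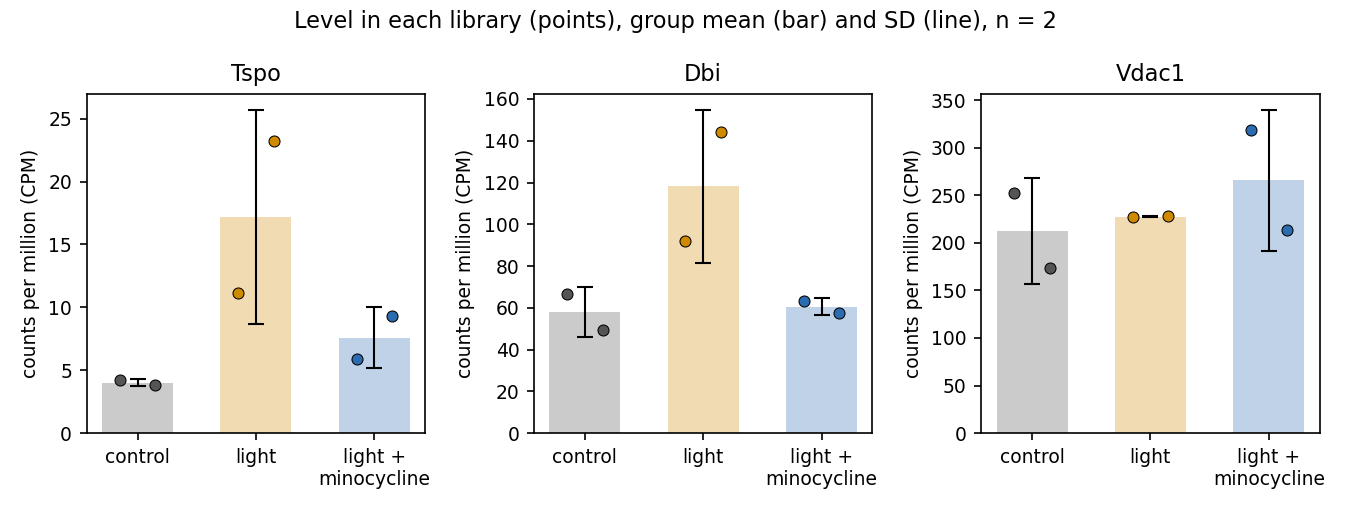
Level of Tspo, Dbi and Vdac1 in CPM (y axis, linear from 0) in each library (points) of the 3 groups (x axis), with the group mean (bar) and SD (line, n = 2). Tspo and Dbi are higher in both light libraries than in every other library, while the Vdac1 points of the 3 groups overlap.

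With 1 library left out, 1 of the groups holds a single library, and the number of calls over all genes changed as well (closing section). A lost call therefore does not by itself show that a result depended on 1 library. Without control replicate 1 the log2 fold change of Tspo was 2.17 with an edgeR adjusted p of 0.105, and without control replicate 2 it was 2.03 with an adjusted p of 0.157. Without light replicate 2 it was 1.48 and remained called, with an adjusted p of 0.00754. The call of Dbi was lost without control replicate 1 (log2 fold change 1.25), without control replicate 2 (0.82) and without light replicate 2 (0.67), with edgeR adjusted p-values of 0.13, 0.271 and 0.132. It held without light replicate 1, where the log2 fold change was 1.31.

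**Figure D2:**
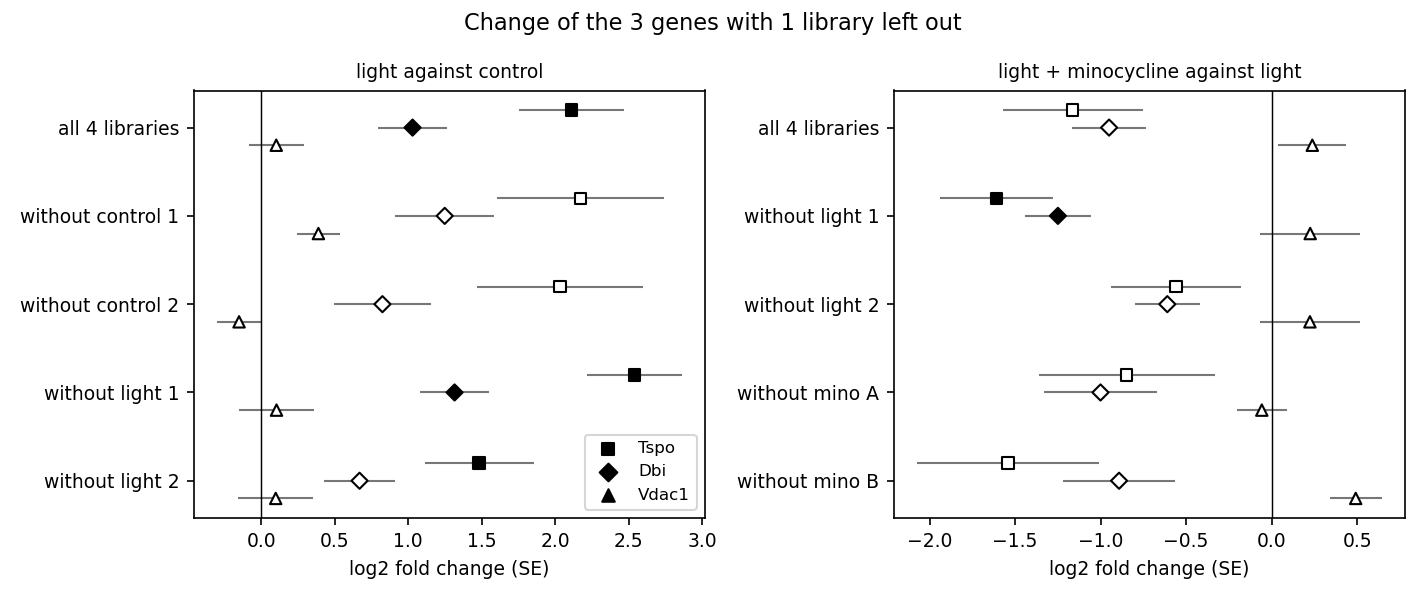
Log2 fold change (x axis, with SE) of the 3 genes with all 4 libraries of a comparison and with each library left out in turn (y axis), for light against control (left) and light with minocycline against light (right). Filled symbols passed the adjusted p. Tspo and Dbi stay on 1 side of 0 throughout, and Vdac1 crosses it when control 2 or minocycline library A is left out.

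In retinas of light-exposed mice with minocycline, Tspo and Dbi mRNA were lower than with light alone in every library, but neither gene passed the edgeR test after adjustment. By edgeR 0 of the 3 genes were called, beside 0.0542% of the 14750 genes tested, a share that corresponds to 8 genes, while 21.1% had an unadjusted p below 0.05. DESeq2 called 1 of the 3, Dbi, beside 7.95% of the genes it tested. With minocycline Tspo had 135 counts in library A and 176 in library B, that is 5.88 and 9.33 CPM, with a mean of 7.60 ± 2.44 CPM (SD, n = 2). Both values were below the lower light library of 11.2 CPM. The log2 fold change against light alone was -1.16 ± 0.41 (SE), with a 95% interval from -2.16 to -0.17 and an edgeR adjusted p of 0.184.

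Dbi had 63.3 CPM in library A and 57.5 CPM in library B, with a mean of 60.4 ± 4.06 CPM (SD, n = 2). Both were below the light libraries and within the range of the controls. The log2 fold change against light alone was -0.95 ± 0.22 (SE), with a 95% interval from -1.47 to -0.44 and an edgeR adjusted p of 0.0873. The DESeq2 test gave an adjusted p of 0.00205 for the same comparison, and edgeR without the filter on low counts gave 0.0419. Non-overlapping replicates in the lower direction were seen for 28.7% of all tested genes.

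Vdac1 had 318.1 CPM in library A and 213 CPM in library B. Library A was the highest of all 6 and library B lay below both light libraries. The mean was 266 ± 74.3 CPM (SD, n = 2), and the log2 fold change of 0.24 ± 0.20 (SE) against light alone had a 95% interval from -0.23 to 0.71 and an edgeR adjusted p of 0.549.

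Light replicate 1 and light replicate 2 differed by 2.08-fold in Tspo and by 1.56-fold in Dbi, and the comparison with minocycline depends on which of them is used. Without light replicate 1 both genes passed, with log2 fold changes of -1.61 for Tspo and -1.25 for Dbi and edgeR adjusted p-values of 0.0415 and 0.0113. Without light replicate 2 the values were -0.56 and -0.61, with edgeR adjusted p-values of 0.814 and 0.428. Leaving out minocycline library A gave -0.85 for Tspo and -1.001 for Dbi, and leaving out library B gave -1.54 and -0.89, with no call in any of these.

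The third comparison asks how far the levels under minocycline lay from those of untreated retinas. It shares its libraries with the first 2 comparisons and is therefore no independent check of them. Tspo was higher in both minocycline libraries than in both controls, with a log2 fold change of 0.97 ± 0.33 (SE) and a 95% interval from 0.22 to 1.71, but the edgeR adjusted p was 0.509. In this comparison 15.9% of the 14181 tested genes had both minocycline libraries above both controls, and 0.162% were called higher. For Dbi the log2 fold change was 0.10 ± 0.18 (SE), with a 95% interval from -0.31 to 0.51 and an edgeR adjusted p of 0.865. For Vdac1 it was 0.37 ± 0.25 (SE), with a 95% interval from -0.21 to 0.94 and an adjusted p of 0.745. The levels of Tspo were thus ordered control, minocycline, light, with no overlap between neighbours, although neither step next to the minocycline group passed the test, whereas those of Dbi separated the light group from the other 2 and those of Vdac1 overlapped between all groups.

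**Figure D3:**
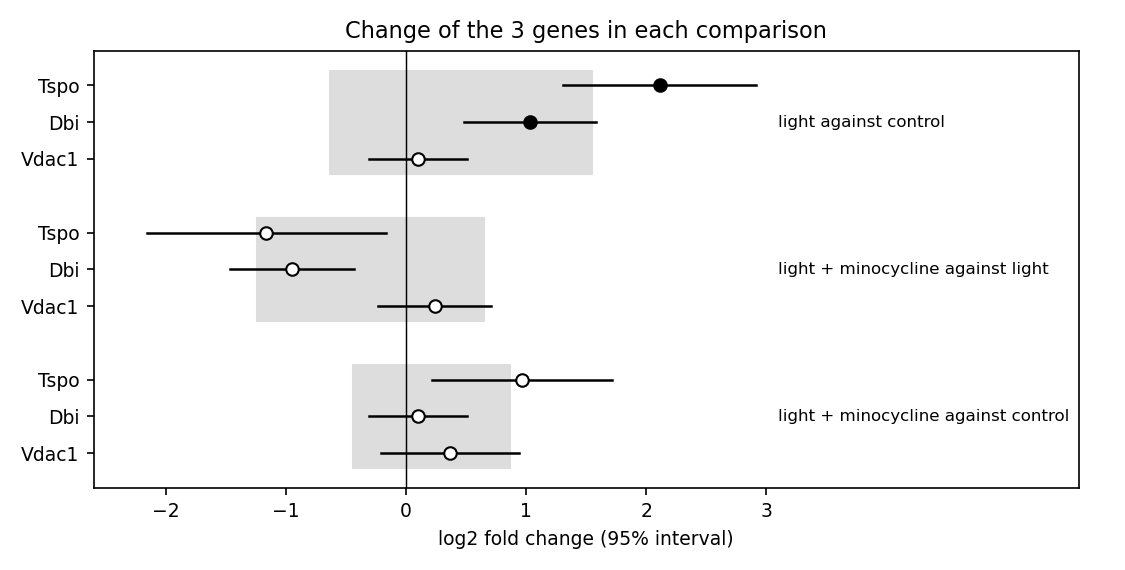
Log2 fold change (x axis) of Tspo, Dbi and Vdac1 (y axis) in the 3 comparisons, with the 95% interval as a line. Filled points passed the adjusted p, and the grey bands span the central 90% of all tested genes. Only Tspo and Dbi in light against control are filled, and of these Tspo lies outside its band.

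Per kilobase of the longest coding transcript, Tspo was the least abundant of the 3 genes in every library. In control retinas it had 5.01 and 4.54 CPM per kilobase, against 116.9 and 87.1 for Dbi and 124.6 and 85.7 for Vdac1. The ligand and the channel did not differ there beyond their spread. In the light libraries Dbi had 161.8 and 253.2 CPM per kilobase and Vdac1 112.3 and 112.6, so that the ligand gene exceeded the channel gene in both. With minocycline Dbi, at 111.2 in library A and 101.1 in library B, and Vdac1, at 157.3 and 105.4 CPM per kilobase, overlapped again.

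The ratio of ligand to receptor mRNA was also taken within each library, and its difference between groups was not tested. Dbi exceeded Tspo per kilobase by 23.3-fold and 19.2-fold in control, and by 12.1-fold and 9.13-fold after light. With minocycline the ratio was 15.8 in library A and 9.08 in library B, the latter close to the lower light library. For Vdac1 to Tspo the ratios were 24.9 and 18.9 in control, 8.42 and 4.06 after light, and 22.4 and 9.46 with minocycline. The control and light libraries did not overlap in either ratio, and library A was nearer to control than library B in both. Such separation is common, as 30.6% of tested genes were higher and 30.3% lower in both light libraries than in both controls.

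Atp5b, a subunit of mitochondrial ATP synthase that served as the reference transcript of the study's PCR assays, gives a scale that does not depend on the normalization. Its own level was 919 and 725 CPM in control, 796.2 and 686.8 CPM after light, and 1028 and 930.8 CPM with minocycline, so that it varied between libraries and was highest in both minocycline libraries. Tspo amounted to 0.456% and 0.525% of the Atp5b counts in control, 1.40% and 3.38% after light, and 0.572% and 1.00% with minocycline. Dbi amounted to 7.24% and 6.84%, 11.6% and 20.97%, and 6.16% and 6.18%. On this scale, too, both genes were highest in the 2 light libraries. Vdac1 amounted to 27.4% and 23.9% in control, 28.5% and 33.2% after light, and 30.95% and 22.9% with minocycline. Its light values were above both controls on this scale, unlike in CPM, and its minocycline values overlapped those of both other groups.

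The Tspo gene shares 196 bases at its start with Mcat, a mitochondrial fatty acid synthesis gene on the opposite strand, of which 53 bases lie in exon 1 of Tspo-201. The library kit keeps the strand, but whether the counting used it is not given. Mcat had 11.9 and 15.1 CPM in control, 13.1 and 14.6 CPM after light, and 14.97 and 10.28 CPM with minocycline. Its log2 fold change in light against control was 0.04 ± 0.23 (SE), with an edgeR adjusted p of 0.921.

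Cell type markers moved with these genes. The 20 microglial markers, all detected in every group, summed to 78.4 and 86.3 CPM in control, to 596.8 and 1893 CPM after light, and to 151.2 CPM in minocycline library A and 75.1 CPM in library B. Their median log2 fold change in light against control was 3.94, with 7 called higher by edgeR, beside 7.52% of all tested genes, and all 20 called by DESeq2, beside 13%. The median in minocycline against light was -3.57. There edgeR called 0, beside 0.0542% of all tested genes, DESeq2 called 18, beside 7.95%, and 19 had an unadjusted p below 0.05 by edgeR, beside 21.1%. Like this sum, Tspo was higher in both light libraries than in both controls, and higher in light replicate 2 than in light replicate 1. Its change was smaller, since 19 of the 20 markers had a larger log2 fold change than Tspo after light and all 20 a lower one with minocycline against light. Tspo, which is not among these markers, amounted relative to their sum to 5.35% and 4.41% in control and 1.87% and 1.23% after light. The part of microglial number in the Tspo change was not tested.

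With minocycline the order was the opposite. Library B had the lower microglial sum, at 75.1 CPM below both controls, but the higher Tspo level, and Tspo there amounted to 12.4% of the microglial sum against 3.89% in library A. Library B also had the highest sums of 4 lists that mark tissue outside the neural retina. The 9 markers of smooth muscle and pericytes summed to 359.6 CPM there and to 103.7 CPM in library A, against 34.3 to 59.6 CPM in the control and light libraries. Smooth muscle genes carried this sum, with 2564 counts of Acta2, 2077 of Myh11 and 1355 of Tagln in library B and no more than 93 of any of them in a control or light library. The pericyte genes Rgs5, Pdgfrb and Cspg4, with 400, 197 and 27 counts in library B, stayed within the range of the control and light libraries. Cnn1, Des and Kcnj8, also on the list, had 50, 96 and 21 counts there, against at most 3, 13 and 20 in a control or light library. In library A Rgs5 had 598 counts, against at most 525. These counts are not scaled to library size. The 8 stromal markers reached 175.2 CPM in library B and 44.4 CPM in library A, against 11.5 to 17.8 CPM elsewhere, and all 8 were detected. The 11 markers of pigment epithelium and pigment cells, of which 10 were detected with minocycline, reached 1556 CPM in library B and 413 CPM in library A, against 154.1 to 421 CPM elsewhere. Genes of melanin synthesis and melanosomes carried that sum, with 12350 counts of Dct, 6424 of Pmel and 5855 of Tyrp1 in library B, against at most 588, 184 and 211 in a control or light library. The visual cycle genes of the pigment epithelium Rpe65, Rgr and Lrat, with 601, 1299 and 266 counts in library B, were highest in control replicate 2, with 966, 1819 and 498. All 12 corneal epithelial markers were detected, with 302.5 CPM in library B and 209.2 CPM in library A against 5.28 to 20.7 CPM elsewhere. Without library A the log2 fold change of Tspo in minocycline against control was 1.26 and passed, with an edgeR adjusted p of 0.0411, and without library B it was 0.56 with an adjusted p of 0.545. The part of these tissues in the Tspo level was not tested.

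For Dbi the matching list is that of Müller cells. Its 10 markers summed to 2814 and 1887 CPM in control, to 3125 and 3541 CPM after light, and to 3525 CPM in library A and 2650 CPM in library B. Their median log2 fold change after light was 0.69, and 3 of the 10 changed by more than Dbi. Dbi amounted to 2.36% and 2.63% of this sum in control, 2.95% and 4.07% after light, and 1.80% and 2.17% with minocycline, so that the ratio was highest in the light libraries. Dbi itself is not part of the sum. The 8 markers of reactive macroglia, among them the intermediate filament gene Gfap, summed to 248.2 and 361.5 CPM in control, 791.9 and 1017 CPM after light, and 355.8 and 285.9 CPM with minocycline. Rod photoreceptor markers summed to 85350 to 109000 CPM in control, 45320 to 63850 CPM after light and 92740 to 100300 CPM with minocycline. The part of these shifts in the change of Dbi was not tested. The 9 markers of infiltrating monocytes and neutrophils in the table were near the detection limit, with sums of 0.563 to 0.853 CPM in control, 2.98 to 4.18 CPM after light and 1.57 to 2.01 CPM with minocycline. Only 1 of them passed the filter in light against control. It was called higher by edgeR, with a log2 fold change of 4.21, beside 7.52% of all tested genes.

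**Figure D4:**
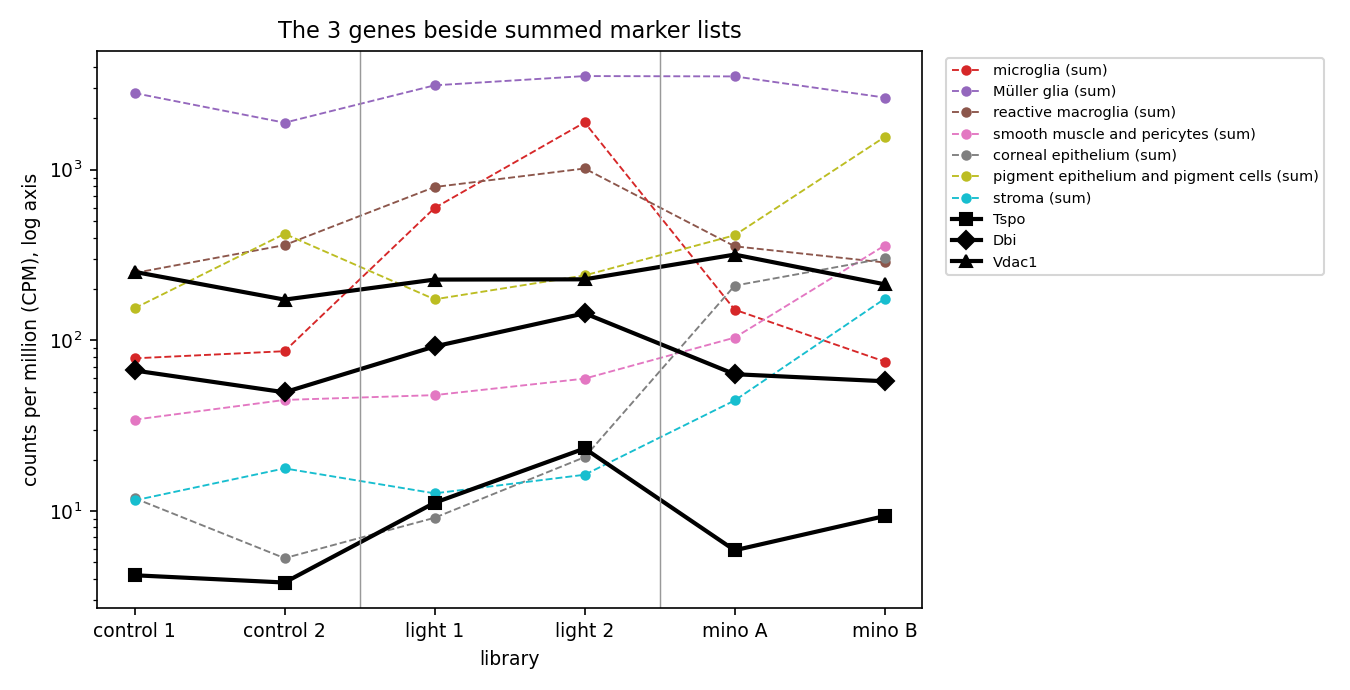
Level of Tspo, Dbi and Vdac1 (black) and summed level of 7 marker lists (colors) in CPM on a log axis (y) in each of the 6 libraries (x). Lines only join the values of 1 gene or list. Tspo and the microglial sum both peak in light 2, but part in the minocycline libraries, where Tspo is higher in B and the microglial sum is higher in A.

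Genes that work with the 3 proteins were taken as 5 lists. TSPO and VDAC partners comprise the relatives of both proteins and the carriers, kinases and adaptors found with them. Of its 12 genes 11 were tested, and the erythroid paralog Tspo2 had no count in any library. After light 0 were called higher and 1 was called lower, the latter beside 3.8% of all tested genes, with a median log2 fold change of -0.15 beside 0.00 over all tested genes. The gene that fell was Hk2, a hexokinase that docks on VDAC and is abundant in photoreceptors. Its levels were 458 and 439 CPM in control, 282 and 230.2 CPM after light, and 361 and 393 CPM with minocycline. Both light libraries were below all others, and the log2 fold change of -0.80 ± 0.17 (SE) in light against control had an edgeR adjusted p of 0.0197. The call was lost without control replicate 1 (log2 fold change -0.78), without control replicate 2 (-0.84) and without light replicate 2 (-0.66), with edgeR adjusted p-values of 0.0681, 0.0927 and 0.209, and held without light replicate 1 (-0.96). The other VDAC channels had log2 fold changes of -0.15 (Vdac2) and 0.11 (Vdac3) and were not called, which was also the case for Vdac1.

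With minocycline against light edgeR called 0 of these 11 genes, beside 0.0542% of all tested genes, and DESeq2 called 2, Hk2 and Slc25a5, beside 7.95% of those it tested. The median was 0.17 beside 0.01 over all tested genes. Slc25a5, the adenine nucleotide translocator of the inner membrane, had 77.1 and 73.4 CPM in light and 114 and 109 CPM with minocycline. The minocycline libraries were higher, with a log2 fold change of 0.58 ± 0.13 (SE), and an edgeR adjusted p of 0.0772, against 0.0336 by edgeR without the filter on low counts and 0.00622 by DESeq2. Hk2 had a log2 fold change of 0.57 ± 0.17 (SE) and an adjusted p of 0.126 by edgeR and 0.0138 by DESeq2.

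Genes of cholesterol import and steroid synthesis, the pathway for which TSPO was long regarded as the gate, had 0 members called by edgeR or DESeq2 in each of the 3 comparisons. Of the 16 genes 10 were tested, a number at which 0 calls lie near the background of 7.52% called higher and 3.8% called lower by edgeR after light, 0.0542% in minocycline against light and 0.162% in minocycline against control. DESeq2 called 13%, 7.95% and 1.07% of the genes it tested in the same 3 comparisons. An unadjusted p below 0.05 was seen by edgeR for 2 of the 10 after light, beside 28.9% of all tested genes. It was seen for 1 in minocycline against light, beside 21.1%, and for 1 in minocycline against control, beside 7.01%. Cyp11a1, the side-chain cleavage enzyme that starts steroid synthesis, had only 0 to 3 counts per library. Star, the acute regulatory protein of the same step, had 57 to 102 counts. The median log2 fold change was 0.07 after light and -0.17 in minocycline against light. The largest value belonged to Cyp27a1, a mitochondrial sterol hydroxylase that is also found in macrophages. It had 5.33 and 10.2 CPM in control, 10.8 and 20.99 CPM after light, and 7.92 and 7.10 CPM with minocycline. The groups differed by log2 fold changes of 1.04 ± 0.41 (SE) after light and -1.07 ± 0.33 (SE) with minocycline against light, with edgeR adjusted p-values of 0.146 and 0.139. Without light replicate 1 it passed in both, with log2 fold changes of 1.44 and -1.48 and edgeR adjusted p-values of 0.00295 and 0.0238. Without light replicate 2 the values were 0.48 and -0.53, with edgeR adjusted p-values of 0.655 and 0.785. Srd5a3, a polyprenol reductase, followed with 0.79 ± 0.28 (SE) after light. With total library size in place of TMM its log2 fold change was 1.022 and passed, with an edgeR adjusted p of 0.0474.

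Among the 7 other genes with an acyl-CoA-binding domain like that of DBI, 1 was called higher after light, beside 7.52% of all tested genes, and 0 lower, with a median log2 fold change of -0.14. This was Eci2, an enoyl-CoA isomerase of fatty acid oxidation, with 14.1 and 15 CPM in control, 22.9 and 25.6 CPM after light, and 17.2 and 18.6 CPM with minocycline. The light libraries were the highest and the minocycline libraries lay in between. The log2 fold change in light against control was 0.74 ± 0.19 (SE), with an edgeR adjusted p of 0.0331. This call, too, was lost without control replicate 1 (log2 fold change 0.69), without control replicate 2 (0.78) and without light replicate 2 (0.66), with edgeR adjusted p-values of 0.0997, 0.121 and 0.283, and held without light replicate 1 (0.82). Acbd7, which like Dbi encodes a small protein built of this domain, had a log2 fold change of -0.61 ± 0.35 (SE) and Acbd6 one of 0.58 ± 0.25 (SE), neither called. With minocycline against light 0 of the 7 were called by edgeR or DESeq2, beside 0.0542% and 7.95% of the genes each tested.

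The GABA-A receptor, a chloride channel of inhibitory synapses, is the second known target of DBI and its fragments. The 9 subunit genes described here were tested, and their log2 fold changes after light ran from 0.32 to 0.88 with a median of 0.52. Of these, 7 lay higher in both light libraries than in both controls, beside 30.6% of all tested genes. By edgeR and by DESeq2 0 of the 9 were called, beside 11.3% and 13% of the genes each tested. An unadjusted p below 0.05 by edgeR was seen for 5, all higher. Over all tested genes this share was 16.5% in the higher direction and 28.9% in either direction. Gabrb2, the gene of a beta subunit, had the lowest edgeR adjusted p of the 9 at 0.0741, with a log2 fold change of 0.51 ± 0.17 (SE). Gabra2, an alpha subunit gene, had 13.8 and 7.32 CPM in control, 17.1 and 18.1 CPM after light, and 25.5 CPM in library A and 10.4 CPM in library B. The light libraries were above both controls, and the minocycline libraries lay on either side of them. In minocycline against light the median was -0.13. There 0 of 9 were called by edgeR or DESeq2, beside 0.0542% and 7.95% of the genes each tested. In minocycline against control the median of the 8 tested subunits was 0.50. There 0 were called by either tool, beside 0.162% by edgeR and 1.07% by DESeq2. Without library B, 3 subunits picked from that fit had log2 fold changes in minocycline against control of 1.28 (Gabra2), 1.04 (Gabra3) and 0.79 (Gabrb2). Without library A the same genes had 0.021, 0.093 and 0.018, so that the higher values were those of library A. The rod markers were lower in the same light libraries, as given above, and their part in these values was not tested.

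The 20 other genes of the outer mitochondrial membrane, including the TOM import channel and the fusion and transport proteins, had a median log2 fold change of -0.03 after light and 0.14 in minocycline against light. In both comparisons edgeR called 0 of them, with 2 at an unadjusted p below 0.05 after light, beside 28.9% of all tested genes, and 0 in minocycline against light, beside 21.1%. DESeq2 called 1 after light, beside 13% of the genes it tested, and 0 in minocycline against light, beside 7.95%. The 1 gene was Rhot2, with a DESeq2 log2 fold change of -0.54 and an adjusted p of 0.0132. By edgeR the highest and lowest values after light were 0.75 ± 0.24 (SE) for Maoa, monoamine oxidase A, and -0.52 ± 0.18 (SE) for Rhot2, which links mitochondria to motor proteins, with edgeR adjusted p-values of 0.0703 and 0.0792. Across the 5 lists 0 of 56 tested genes were called by edgeR in minocycline against light, with 4 at an unadjusted p below 0.05, beside 21.1% of all tested genes, and 2 called by DESeq2, Hk2 and Slc25a5, beside 7.95% of the genes that DESeq2 tested. In minocycline against control 0 of 54 were called by edgeR, with 2 at an unadjusted p below 0.05, beside 7.01% of all tested genes, and 0 called by DESeq2, beside 1.07%.

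**Figure D5:**
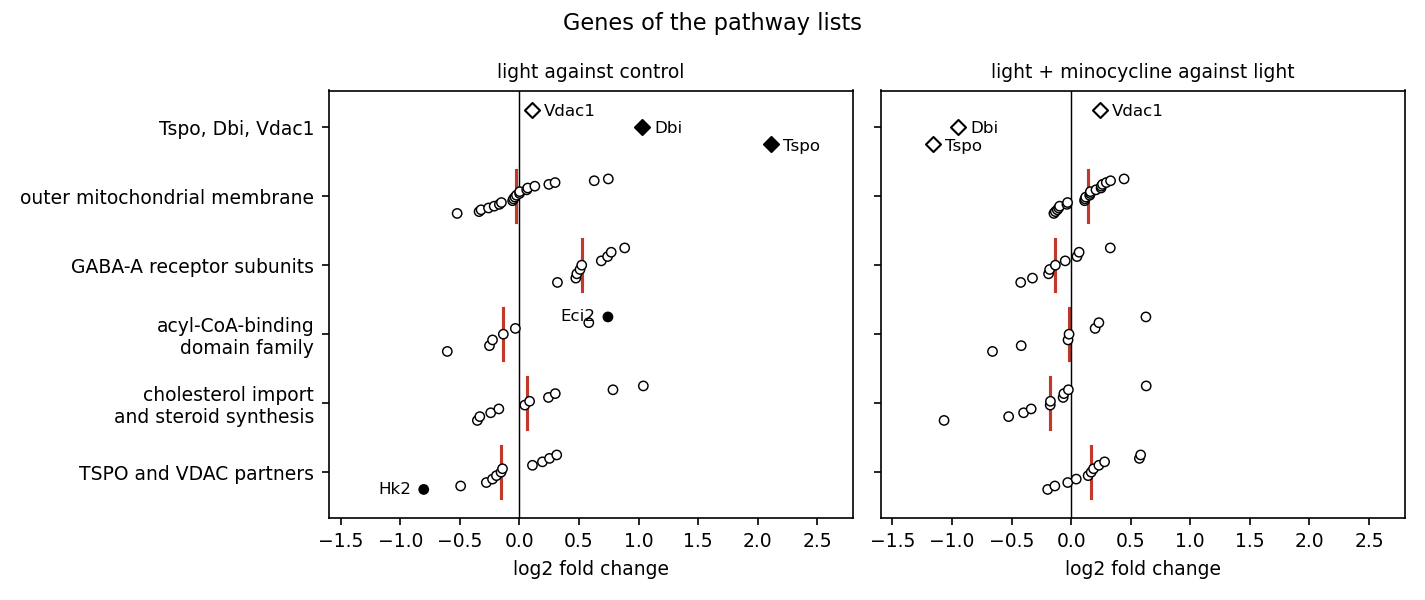
Log2 fold change (x axis) of each tested gene of the 5 pathway lists and of Tspo, Dbi and Vdac1 (y axis), for light against control (left) and light with minocycline against light (right). Filled symbols passed the adjusted p and red lines are list medians. Hk2 falls and Eci2 rises after light, and no symbol is filled on the right.

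The genes with the most similar profile were found by the root mean square difference of log2 CPM, centred on each gene's mean over the 6 libraries, among 11293 genes with a mean of at least 5 CPM. Closest to Tspo were Uap1l1 (0.12), the receptor tyrosine kinase gene Axl (0.15), the lysosomal tetraspanin gene Cd63 (0.16), Tor3a (0.17) and the lipid droplet coat gene Plin3 (0.17). All 5 were highest in light replicate 2 and, like Tspo, higher in minocycline library B than in library A. Axl, for instance, had 8.67 and 8.94 CPM in control, 29.2 and 62.8 CPM after light, and 16.2 CPM in library A and 21.5 CPM in library B. No more than 9 genes came within 0.2 of Tspo.

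Dbi had 136 genes within 0.2. The closest were the actin-binding gene Cotl1 (0.05), Rhoc (0.08), a small GTPase, the thymosin gene Tmsb4x (0.09), Prkg1 (0.09), a cGMP-dependent kinase, and Arhgap15 (0.10). Cotl1 had 61.9 and 49.9 CPM in control, 82.2 and 135.1 CPM after light, and 60.3 and 56.1 CPM with minocycline. Vdac1, with its small range, had 1316 genes within 0.2, led by the glycolytic gene Aldoc (0.03), Pja1 (0.04), Gm13889 (0.04), Eif1ax (0.05) and the calmodulin gene Calm3 (0.05). Likeness over 6 libraries of 3 groups describes these libraries and was not tested.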

How the data were processed

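RNA-seq was performed on total retinal RNA of 6 libraries with a stranded poly-A kit and 50 single-read cycles. Per the labels and the methods, the authors aligned reads to mm10 with STAR and compared groups with DESeq2, and versions are not given in the sources used here. The deposited table held whole-number read counts per gene for 23420 symbols, of which 4791 had no count in any library. Although the study's data statement calls the values normalized, library totals differed and counts were used as deposited. No column was left out.

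edgeR 4.0.16 (R 4.3.3) fitted each pair of groups alone (filterByExpr, TMM, robust quasi-likelihood test), with Benjamini-Hochberg adjustment over all tested genes. SE and 95% intervals come from the test's F statistic, and fold changes are edgeR's. DESeq2 1.42.0 (Wald test, no shrinkage) and other alternatives were run as given in the closing section. Scripts were tested on simulated data. CPM were scaled over all 6 libraries. Log2 CPM used a prior count of 2. Depth limited Tspo most, and Poisson intervals cover counting error only. Replicates were biological per the methods, with no animal given.

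The 3 genes and all lists were chosen with earlier results of these data known. Named were the 3 genes, list genes that passed or had the largest changes, and the 5 closest profiles per gene. Gene positions and transcript sequences are from GENCODE M21. Some items are not reported here, and the list counts leave them out.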

Additional observations from a re-analysis of the deposited data

How the results depend on the processing

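The log2 fold changes of Tspo and Dbi in light against control kept their direction and their edgeR or DESeq2 call in each of the other scalings, filters and fits run, and lost the call only with libraries left out. With 1 library left out they ran from 1.48 to 2.54 for Tspo, from 0.67 to 1.31 for Dbi and from -0.15 to 0.39 for Vdac1. In minocycline against light these ranges were -1.61 to -0.56, -1.25 to -0.61 and -0.06 to 0.49, and in minocycline against control 0.56 to 1.26, -0.09 to 0.32 and 0.04 to 0.65. Vdac1 turned to -0.15 in light against control without control replicate 2 and to -0.057 in minocycline against light without library A, and Dbi to -0.091 in minocycline against control without control replicate 2, none of them called. Dbi in minocycline against light passed with DESeq2 (-0.95) and without a filter on low counts (-0.94). The cause was not tested.

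Of the pathway genes 2 passed in light against control, 7 with total library size in place of TMM (Hk2, Eci2, Srd5a3, Maoa and 3 GABA-A subunit genes), 7 with a replicate block (Hk2, Eci2, Cyp27a1 and 4 GABA-A subunit genes) and 0 to 3 with a library left out. In minocycline against light 0 passed, 2 with DESeq2 (Hk2 and Slc25a5), 1 without a filter (Slc25a5) and 0 to 1 with a library left out, and in minocycline against control 0 to 3. In light against control 56 pathway genes were tested. Calls over all 14349 tested genes rose as well, from 1624 to 2063 with total library size and to 2525 with the replicate block. Total library size moved the median over all tested genes in light against control, on the log2 scale, from 0.00 to 0.24. The share of higher calls went from 66.4% to 93.6%. With this scaling Tspo had 2.35, Dbi 1.27 and Vdac1 0.34, the shift included. Over all genes 1624 passed in light against control, 2525 with the replicate block, and 4, 57, 2145 and 497 without control 1, control 2, light 1 and light 2. In minocycline against light 8 passed, 2 with DESeq2 size factors, 0 with total library size, 1211 with DESeq2, 732 without a filter, 488 with all 6 libraries fitted together, 15 without robust estimation and 14 to 772 with a library left out. In minocycline against control 23 passed, 167 with DESeq2, 187 without a filter, 3 with at least 10 counts in every library, 0 with all 6 libraries and 3 to 480 with a library left out.

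Control and light libraries of the same number share only that number. Their deviations had a correlation of -0.01 across 14713 genes, and with the replicate block the log2 fold changes were 2.02 for Tspo, 1.01 for Dbi and 0.13 for Vdac1, with no change of call. No paired analysis was possible because of the missing replicate numbers wherever minocycline is compared. With 1 library left in a group, that library was assumed to vary like the other group.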
